A study of Drosophila melanogaster with 24 samples.

Results

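The tricarboxylic acid cycle enzymes considered here are 10 genes chosen by FlyBase symbol: kdn, mAcon1, Idh3a, Idh3b, Ogdh, Scsalpha1, ScsbetaA, SdhA, Fum1 and Mdh2. Counts of 9 of the 10 were read from a table of 17698 genes, and Fum1, a fumarase gene, is not analysed here. All 9 passed the low-count filter, which kept 8707 genes. The cycle runs in the mitochondrial matrix, where acetyl-CoA and oxaloacetate are joined to citrate, which is oxidised step by step back to oxaloacetate while NADH and reduced ubiquinone carry the electrons to the respiratory chain. It is also a hub of synthesis: citrate that leaves it feeds fatty acid synthesis, and amino acid carbon enters and leaves through its 2-oxoglutarate and oxaloacetate. The larval fat body, the insect counterpart of liver and adipose tissue, uses both sides of the cycle while it stores fat and glycogen.

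RNA was sequenced from fat bodies of Drosophila melanogaster larvae in 6 groups of 4 libraries, each made from the pooled fat bodies of 50 larvae. In the 4 tumour groups, sampled 4, 5, 8 and 11 days after egg laying, the genotype was C855a-Gal4/UAS-scrib-RNAi, in which a driver active in epithelia expresses a hairpin against the cell polarity gene scrib and the wing discs form tumours. In the 2 control groups, sampled at days 4 and 5, it was C855a-Gal4/UAS-control-RNAi. By the labels all 6 groups carry the driver and a UAS-RNAi construct. Whether that of the controls encodes a hairpin is not stated there. Eggs were collected over 3 hours, and the knockdown is aimed at epithelia, not at the fat body that was sampled. With a tumour, larvae keep growing and fail to pupate, as the labels state. Controls of days 8 and 11 are not analysed here, so that at those ages the effects of age and tumour cannot be told apart. Larvae of the same day may also differ in developmental stage, which cannot be told apart from the tumour at days 4 and 5. A tumour effect at these days is the difference from controls of the same day. Whether the 4 pools of a group were raised apart is not stated, and p-values therefore describe the spread among pools, which may be technical.

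Total counts ran from 16074877 to 23352151 per library. All 8 fat body markers were measured, and their summed level was 543000 to 639100 CPM in the day 4 tumour libraries, 274000 to 425000 at day 5, 95060 to 161700 at day 8 and 55590 to 76540 at day 11, against 519700 to 595000 in controls of day 4 and 462800 to 497300 at day 5. Levels are CPM, read counts scaled to the size of the library after TMM adjustment, listed in the order of the replicate numbers, and are comparable between genes only when divided by exon length in kilobases. Each change is given on the log2 scale ± SE, and genes count as called where the quasi-likelihood test of edgeR gave a p under 0.05 after Benjamini-Hochberg adjustment across the 8707 genes. Against controls of the same day, 1 of the 8 fat body markers was called higher and 2 lower at day 4. At day 5 it was 4 higher and 1, Fbp1, lower, so the lower sum did not hold for all 8. Changes of the 8 at day 5 ran from -6.50 to 1.40. Of all genes 14.6% were called higher and 10.5% lower at day 4, and 26.7% and 28.2% at day 5. In these bulk samples, fewer cells of a type and less RNA per cell cannot be told apart.

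At day 4, with a tumour, 6 of the 9 enzymes were called higher than in controls and none lower, with a median log2 change of 0.48 against 0.01 over all genes tested. Of all genes 14.6% were called higher and 10.5% lower. At an unadjusted p under 0.05, and by DESeq2, 0 of the 9 were lower as well. The 6 were kdn, mAcon1, Idh3a, Idh3b, Ogdh and SdhA. With only the groups compared in the model 4 were called, without kdn and Idh3a, beside 1065 of all genes in either direction. At day 5 the enzymes moved in both directions: Ogdh, SdhA, Mdh2 and ScsbetaA were called higher and Scsalpha1 and mAcon1 lower, 4 and 2 of 9, where 26.7% of all genes were called higher and 28.2% lower. Their median change was 0.21, against 0.03 over all genes. The difference between the tumour effects of both days was tested as an interaction and called for 4 enzymes: the effect was larger at day 5 for Ogdh, SdhA and Mdh2 and smaller for mAcon1. Over all genes 12.1% were called with a larger and 16.8% with a smaller value at day 5. The median interaction of the 9 enzymes was -0.27 against 0.00 over all genes. The interaction of Scsalpha1, -0.37, was called without tumour replicate 2 of day 4 (-0.46, edgeR adjusted p = 0.0154) or of day 5 (-0.43, adjusted p = 0.0413) or control replicate 3 of day 4 (-0.42, adjusted p = 0.0487). That of Idh3a, -0.28, was called without control replicate 2 of day 4 (-0.38, edgeR adjusted p = 0.0412).

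RNA of other tissues also differed in these comparisons. At day 4, 7 of 8 salivary gland markers were called lower with tumours (summed level 0.0619 to 3.01 CPM, against 3.98 to 1436 in controls), and 2 of 6 haemocyte markers higher. At day 5, 3 of 6 haemocyte markers were called higher (72.8 to 139.9 CPM, against 32.6 to 56.4 in controls), as were 3 of 8 muscle markers (18.7 to 211 CPM, against 18.4 to 34.6), and 2 salivary gland markers lower (0.203 to 242 CPM, against 29.3 to 1486). Their part in the enzyme values was not tested. Without the 2 day 5 tumour libraries that held testis or the most muscle RNA, 3 enzymes were called higher and 2 lower at day 5. Over all genes 1949 were called higher and 1978 lower in that fit. Without the 2 controls richest in salivary gland RNA the enzymes called at day 5 were 4 and 2, beside 2397 and 2483 of all genes. Without these 2 controls, 6 were higher and 1, Scsalpha1, lower at day 4, beside 1449 and 1044 of all genes.

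**Figure D1:**
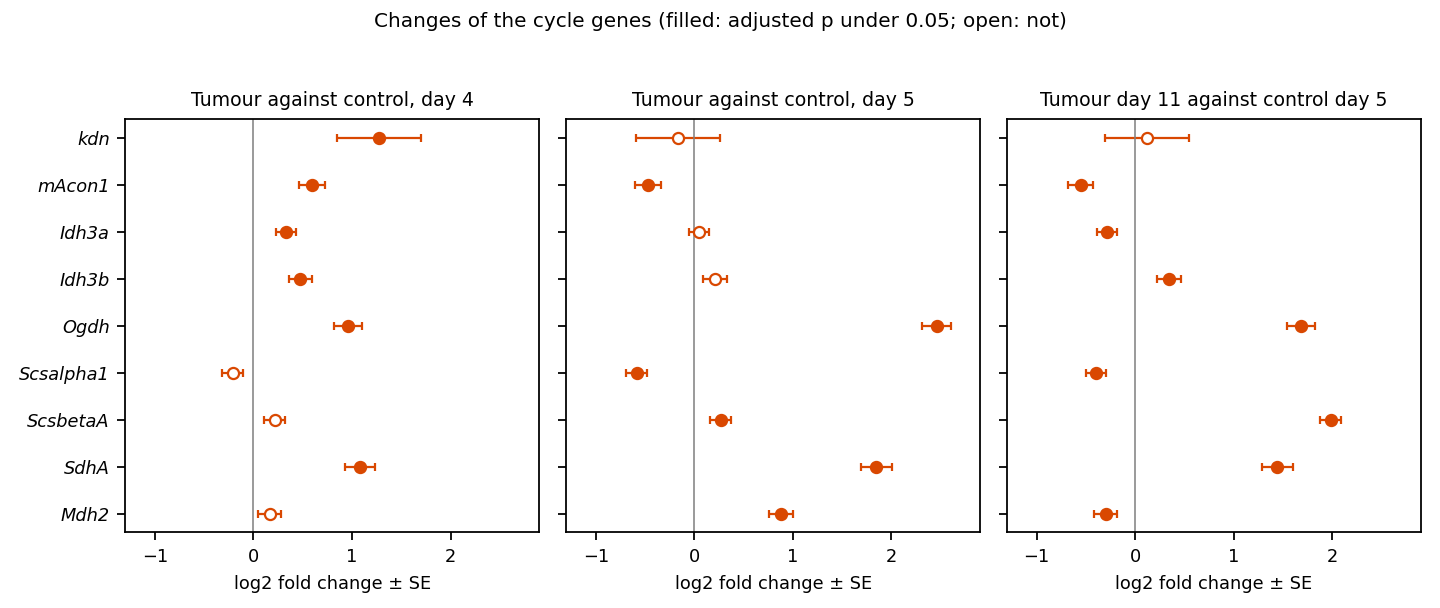
Log2 fold changes (x axis, ± SE) of the 9 enzymes, in cycle order from kdn at the top, for tumour against control at days 4 and 5 and for tumour day 11 against control day 5. Filled points have an adjusted p under 0.05 over all genes; at day 4 only the Scsalpha1 point lies below 0, and at day 5 the points spread from -0.58 to 2.46.

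**Figure D2:**
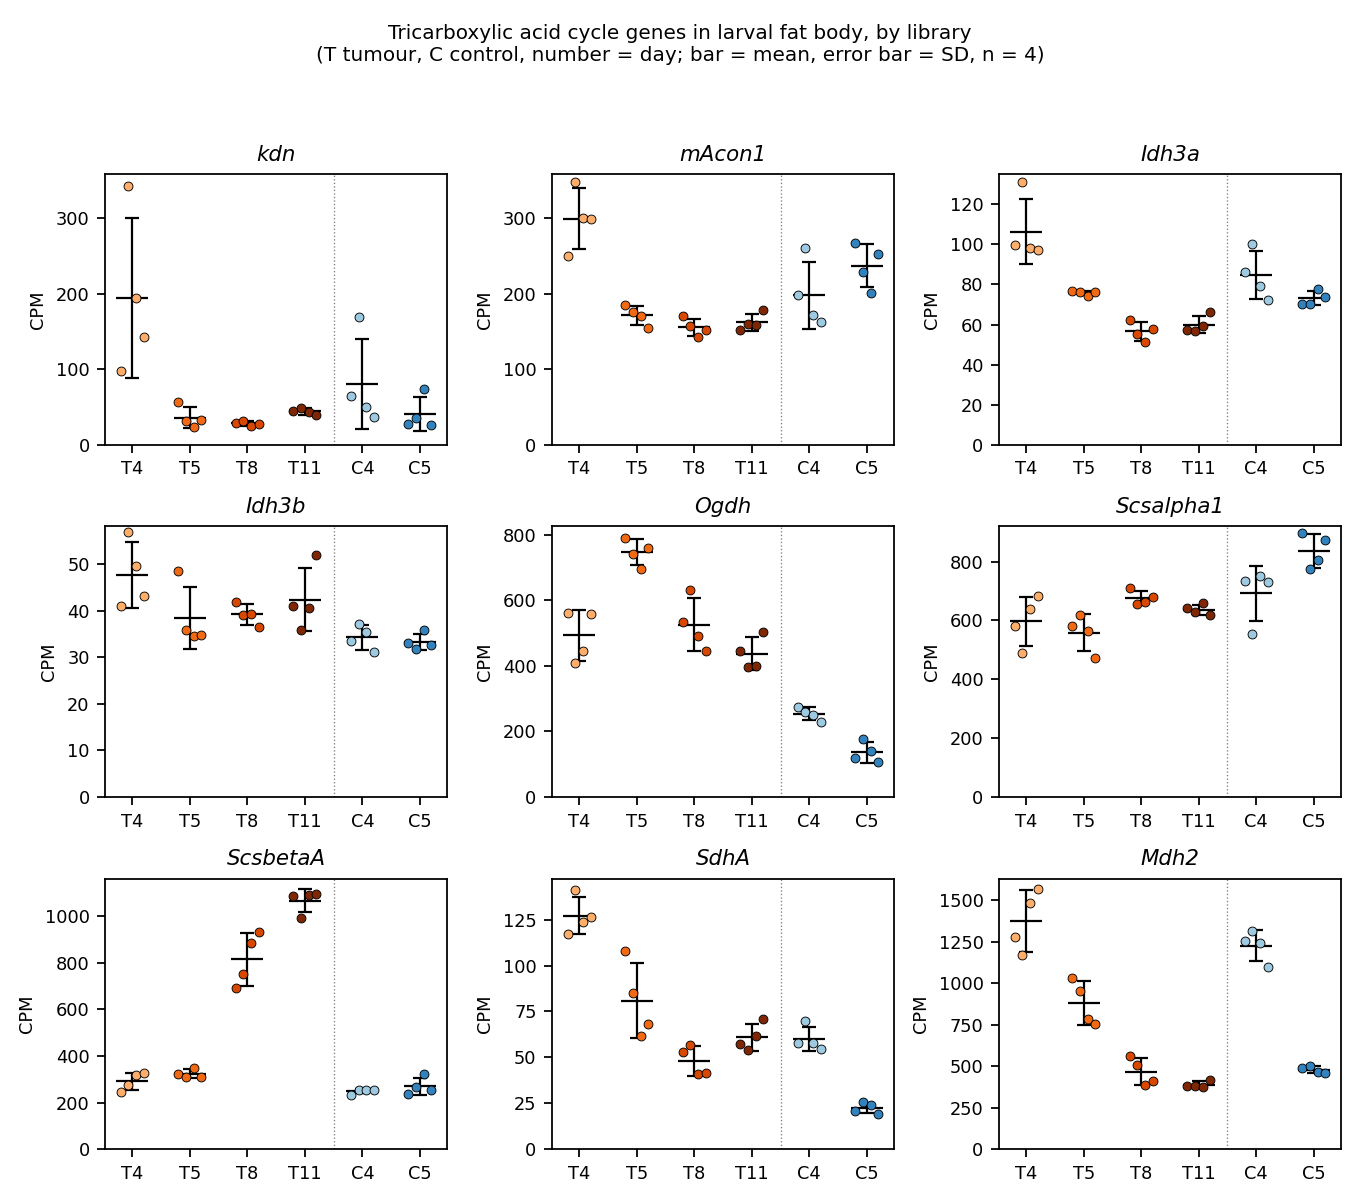
Level of each enzyme gene in CPM (y axis, from 0) in every library of the tumour groups (T4, T5, T8, T11) and control groups (C4, C5), with the group mean as a bar and the SD as an error bar (n = 4). ScsbetaA climbs at days 8 and 11, Ogdh lies above both control groups at every tumour day, and kdn is spread widely within the day 4 groups.

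The first enzyme, citrate synthase, which joins acetyl-CoA to oxaloacetate, is encoded by kdn (FBgn0261955; X, 6350629 to 6361323, BDGP6.54 annotation, as for all positions here). In the day 4 tumour libraries it was at 98.3, 342, 195 and 142 CPM, against 65.0, 169, 50.6 and 37.2 in controls. Libraries of both groups overlapped, the second of each being the highest of its group. The log2 change was 1.27 ± 0.43 (edgeR, adjusted p = 0.0333). It ended when 1 of 5 libraries was left out, tumour replicate 2 or 3 or control replicate 1, 3 or 4 (0.85 to 1.27, adjusted p 0.0574 to 0.154). It also ended with no low-count filter (1.28, adjusted p = 0.0649) and with only the groups compared in the model (1.23, adjusted p = 0.142). Day 5 tumour libraries held 56.2, 31.6, 23.5 and 32.8 CPM, all below those of day 4, and kdn fell by 2.43 ± 0.45 on the log2 scale between these days. Day 5 controls held 27.0, 35.6, 73.4 and 26.1 CPM, and the tumour effect at that day was -0.17 ± 0.43 (edgeR, adjusted p = 0.762). Without control replicate 3 of day 5, the highest of its group, it was 0.28, adjusted p = 0.599, and without tumour replicate 3 it was 0.04, adjusted p = 0.945. The interaction of kdn, -1.44 ± 0.60, was called without control replicate 2 of day 4 (-2.11, adjusted p = 0.0047), and also without tumour replicate 1 of day 4 (-1.67, adjusted p = 0.043) or of day 5 (-1.74, adjusted p = 0.0429). DESeq2 called it too (-1.41, adjusted p = 0.0459), as did edgeR without the 2 controls richest in salivary gland RNA (-1.65, adjusted p = 0.0115).

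In 3 groups the spread of kdn ran with that of srl, the fly counterpart of the vertebrate coactivator PGC-1, which promotes mitochondrial gene expression. In day 4 tumour libraries srl was at 6.32, 27.5, 17.6 and 10.6 CPM, against 19.1, 49.2, 14.8 and 12.4 in day 4 controls. Day 5 tumour libraries held 18.0, 16.1, 19.6 and 20.5 CPM of srl, against 7.57, 9.38, 39.7 and 9.46 in day 5 controls. The library with most kdn in each of tumour day 4, control day 4 and control day 5 also held the most srl of its group. This was not particular to srl: the summed level of the list of mitochondrial content and regulators, to which srl belongs, was highest in the same libraries (2779, 1766 and 904 CPM). At tumour day 5 that sum was highest in replicate 1 (1009 CPM), as was kdn, while srl was highest in replicate 4. The control libraries of these, replicate 2 of day 4 and replicate 3 of day 5, had summed salivary gland markers of 1436 and 1486 CPM, while tumour replicate 2 of day 4 had 3.01 CPM. The part of this RNA in the kdn values was not tested. Without both control libraries the tumour effect on kdn at day 4 was 1.94 (edgeR, adjusted p = 0.000253). This left out the day 4 control with the most kdn and kept the tumour library with the most. Without that tumour library, replicate 2 of day 4, and with all controls kept, the effect was 0.85 (edgeR, adjusted p = 0.154). srl was singled out here after the values were seen, and it was called in no comparison.

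**Figure D3:**
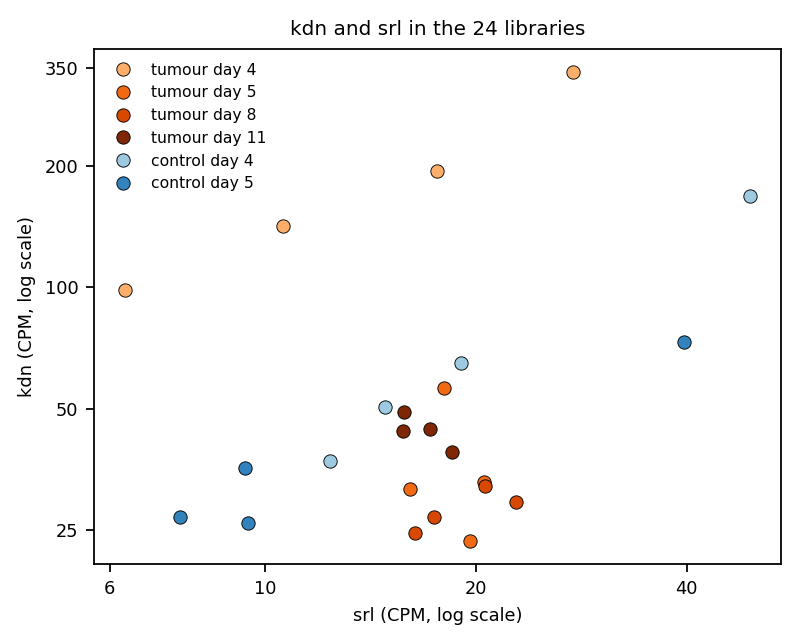
Level of kdn (y axis, CPM, log scale) against srl (x axis, CPM, log scale) in the 24 libraries, coloured by group. Within tumour day 4, control day 4 and control day 5 the library furthest to the right is also the highest, at 342, 169 and 73.4 CPM of kdn.

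Mitochondrial aconitase, mAcon1 (FBgn0010100; 2L, 21168570 to 21173185), an iron-sulphur enzyme that turns citrate into isocitrate, moved in opposite directions at days 4 and 5. At day 4 tumour libraries held 249.9, 348, 301 and 299 CPM, against 198, 261, 172 and 162 in controls. The tumour groups lay higher but overlapped through control replicate 2, and the change was 0.60 ± 0.13 (edgeR, adjusted p = 0.00164). At day 5 tumour libraries held 185, 175, 169.9 and 155 CPM, against 267, 229, 201 and 253 in controls, with every tumour library below every control library. This was a change of -0.47 ± 0.13 (adjusted p = 0.00391 by edgeR), and the interaction was -1.06 ± 0.18 (edgeR, adjusted p = 0.000129). With tumours the level fell after day 4 and then stayed within a narrow range, 169.8, 158, 142 and 152 CPM at day 8 and 152, 159.9, 158 and 178 at day 11. Between day 5 and day 4 of controls the change, 0.26 ± 0.13, was not called, but it was without control replicate 2 of day 4 (0.42, adjusted p = 0.00398) or replicate 3 of day 5 (0.33, adjusted p = 0.0394) and without the 2 controls richest in salivary gland RNA (0.50, adjusted p = 0.00108). RLE scaling (0.32, adjusted p = 0.0387) and DESeq2 (0.32, adjusted p = 0.026) called it as well.

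NAD-dependent isocitrate dehydrogenase, which makes 2-oxoglutarate and the cycle's first NADH, has alpha and beta subunits encoded by Idh3a (FBgn0027291; X, 19518428 to 19521810) and Idh3b (FBgn0038922; 3R, 22016391 to 22019382). Idh3b was at 41.0, 56.8, 49.6 and 43.2 CPM in day 4 tumour libraries, against 33.4, 37.1, 35.5 and 31.1 in controls. Its groups did not overlap, and the change was 0.48 ± 0.12 (edgeR, adjusted p = 0.00569). Idh3a was at 99.5, 131, 98.1 and 97.1 CPM in day 4 tumour libraries, against 86.2, 100.3, 79.5 and 72.1 in controls. These overlapped, tumour replicate 2 standing far above the rest, and the change of 0.33 ± 0.10 (edgeR, adjusted p = 0.0191) was lost without tumour replicate 2 or control replicate 3 or 4 (0.22 to 0.31, adjusted p 0.0587 to 0.0872), and with only the groups compared in the model (0.29, adjusted p = 0.172). At day 5 neither was called, Idh3a at 0.05 ± 0.10 and Idh3b at 0.21 ± 0.12, although Idh3b was without tumour replicate 3 (0.31, adjusted p = 0.0418). The gamma subunit gene Idh3g, from a list of the cycle's other subunits, was called higher at both days (0.57 ± 0.12 and 0.66 ± 0.12). Per kilobase, Idh3a over Idh3g was 2.94 ± 0.0519 at tumour day 4, 1.90 ± 0.217 at day 5, 1.33 ± 0.0663 at day 8 and 1.34 ± 0.0929 at day 11 (SD), against 3.48 ± 0.320 and 2.87 ± 0.144 in controls of days 4 and 5. The subunits of this enzyme stood in different proportions by group, a description that was not tested.

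Ogdh (FBgn0010352; 3L, 16954822 to 16968724) encodes the E1 subunit of the 2-oxoglutarate dehydrogenase complex, which makes succinyl-CoA, and held the largest tumour effect of the 9 enzymes at day 5. At day 4 it was at 562, 410.0, 444 and 558 CPM in tumour libraries, against 276, 259, 249.6 and 228 in controls. At day 5 it was at 791, 739.9, 697 and 759 CPM in tumour libraries, against 118, 178, 139 and 108 in controls. On both days every tumour library lay above every control library. The changes were 0.96 ± 0.14 at day 4 (edgeR, adjusted p = 3.71e-05) and 2.46 ± 0.15 at day 5 (edgeR, adjusted p = 1.59e-11), with an interaction of 1.50 ± 0.20 (edgeR, adjusted p = 7.52e-06). Between days 4 and 5 Ogdh rose by 0.60 ± 0.14 with tumours, while in controls it fell by 0.90 ± 0.14. Its exons share 294 bases with Cpr73D on the opposite strand and 63 with Obp73a. Cpr73D had at most 3.62 CPM and Obp73a at most 0.472 CPM in any library.

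The other parts of the complex had smaller log2 changes. CG5214, the E2 subunit (dihydrolipoamide succinyltransferase), changed by 0.33 ± 0.12 at day 4 and 0.76 ± 0.12 at day 5, and CG7430, the E3 subunit shared with pyruvate dehydrogenase, by 0.49 ± 0.15 and 0.65 ± 0.15. Per kilobase, Ogdh over CG5214 was 1.77, 1.78, 2.10 and 2.07 in the day 5 tumour libraries, against 0.616, 0.769, 0.491 and 0.503 in day 5 controls. The groups did not overlap. At day 4 it was 1.06, 0.627, 0.728 and 0.841 with tumours, against 0.589, 0.499, 0.501 and 0.480 in controls, also with no overlap. At days 8 and 11 the ratio was 1.47 ± 0.166 and 1.08 ± 0.106 (SD).

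Succinyl-CoA synthetase turns succinyl-CoA into succinate and makes a nucleoside triphosphate, and its partner beta subunit sets which: ScsbetaA pairs with the alpha subunit to make ATP and ScsbetaG to make GTP. ScsbetaA (FBgn0037643; 3R, 8938724 to 8943027) carried the largest change of the 9 enzymes at day 8 against day 5 of the tumour course. It was at 245, 276, 317 and 326 CPM at tumour day 4, 324, 311, 351 and 312 at day 5, 692, 751, 887 and 934 at day 8 and 1087, 991, 1090 and 1097 at day 11. Controls held 235, 256, 256 and 254 CPM at day 4 and 236, 266, 321 and 254 at day 5. Each library of day 8 was above every earlier one, and each of day 11 above every one of day 8. The change was 1.33 ± 0.11 at day 8 against day 5 (edgeR, adjusted p = 2.08e-08) and 0.39 ± 0.11 at day 11 against day 8 (edgeR, adjusted p = 0.0467). The second ended without any 1 of 7 of the 8 libraries of these days, all but tumour day 8 replicate 4 (0.32 to 0.43, adjusted p 0.0538 to 0.19), and with no low-count filter (0.40, adjusted p = 0.0749). Its exons share 74 bases with CG11964 on the opposite strand, which held 11.9 to 22.8 CPM.

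ScsbetaG, the other beta subunit, went the opposite way over the same days. It was at 464, 359.9, 448 and 446 CPM at tumour day 4, 398, 451, 376 and 409 at day 5, 307, 278, 244 and 252 at day 8 and 179, 169.7, 137 and 168 at day 11. The changes were -0.60 ± 0.11 at day 8 against day 5 (edgeR, adjusted p = 0.000349) and -0.72 ± 0.11 at day 11 against day 8 (edgeR, adjusted p = 0.00102). Per kilobase, ScsbetaA over ScsbetaG was 0.479 ± 0.0746, 0.561 ± 0.0722, 2.16 ± 0.498 and 4.62 ± 0.663 (SD) at tumour days 4, 5, 8 and 11, against 0.433 ± 0.0446 and 0.457 ± 0.118 in controls of days 4 and 5. ScsbetaG was therefore the more abundant beta transcript in all 16 libraries of days 4 and 5 and ScsbetaA in all 8 libraries of days 8 and 11. The sum of both was 396, 398, 526 and 569.5 CPM per kilobase at those tumour days, against 364 and 382 in controls.

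Markers of other cells moved over the same days. All 6 haemocyte markers were called higher at day 8 against day 5 and at day 11 against day 8, and their summed level was 96.0 ± 30.0, 266 ± 60.8 and 682 ± 109 CPM (SD) at tumour days 5, 8 and 11, with no marker at 0. Fat body markers summed to 355100 ± 77730, 123200 ± 32430 and 64190 ± 8825 CPM at those days. At day 8 against day 5, 3 of 8 muscle markers, Sgs5 of the salivary gland and Mst87F of the testis were called lower. Amy-p of the gut and ap of the imaginal disc were called higher there. Of all genes 12% were called higher and 14% lower at day 8 against day 5, and 1.72% and 1.62% at day 11 against day 8. Their part in the values of ScsbetaA and ScsbetaG was not tested.

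**Figure D4:**
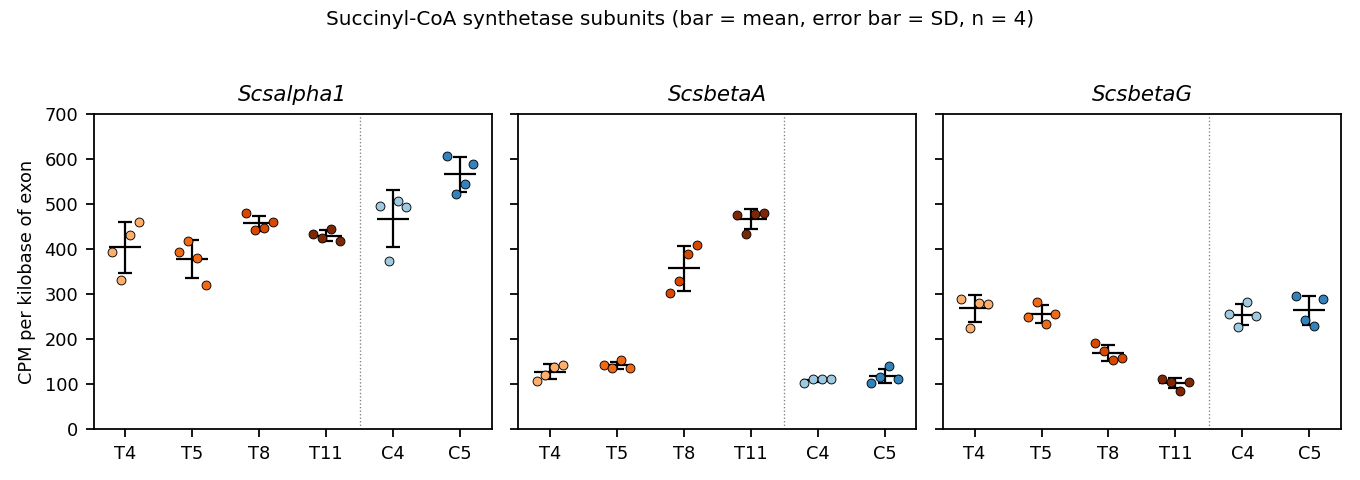
Levels per kilobase of exon (y axis, CPM per kilobase, from 0) of the alpha subunit Scsalpha1, the ADP-forming beta subunit ScsbetaA and the GDP-forming beta subunit ScsbetaG in every library, with group means as bars and SD as error bars (n = 4). ScsbetaA rises and ScsbetaG declines from day 5 to day 11 with tumours, and their points cross between days 5 and 8.

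The common alpha subunit, Scsalpha1 (FBgn0004888; 3L, 3814211 to 3818383), had another pattern again, with its highest levels in controls. At day 5 it was at 581, 618, 563 and 473 CPM in tumour libraries, against 898, 774, 805 and 872 in controls. All tumour libraries were below all controls, a change of -0.58 ± 0.11 (edgeR, adjusted p = 7.04e-05). At day 4 it was at 582, 489, 639 and 681 CPM in tumour libraries, against 735, 553, 751 and 729.6 in controls. Those groups overlapped and the change, -0.21 ± 0.10, was not called unless control replicate 2 was left out (-0.30, adjusted p = 0.0264). ScsbetaA was at 0.27 ± 0.11 against controls at day 5 (edgeR, adjusted p = 0.0375), which was lost without tumour replicate 1 or control replicate 1, 2 or 4 (0.21 to 0.27, adjusted p 0.0656 to 0.137). It was also lost with no low-count filter (0.25, adjusted p = 0.084), with only the groups compared in the model (0.26, adjusted p = 0.0916) and without the 2 tumour libraries with testis or muscle RNA (0.27, adjusted p = 0.0993). Per kilobase, Scsalpha1 over ScsbetaA was 3.18 ± 0.382, 2.66 ± 0.323, 1.30 ± 0.212 and 0.922 ± 0.0441 (SD) at tumour days 4, 5, 8 and 11, against 4.28 ± 0.658 and 4.88 ± 0.884 in controls.

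SdhA (FBgn0261439; 2R, 19391863 to 19395971), the flavoprotein of succinate dehydrogenase, which oxidises succinate and is also complex II of the respiratory chain, was higher with tumours on both days. At day 4 it was at 117, 141, 124 and 126 CPM in tumour libraries, against 57.7, 69.8, 57.9 and 54.8 in controls. At day 5 it was at 108, 85.1, 61.9 and 68.4 CPM in tumour libraries, against 21.0, 25.5, 24.1 and 19.1 in controls. No tumour library overlapped with a control of its day. The changes were 1.08 ± 0.15 (edgeR, adjusted p = 2.23e-05) and 1.85 ± 0.16 (edgeR, adjusted p = 2.18e-09), and the interaction 0.77 ± 0.21 (edgeR, adjusted p = 0.00974). Its exons share 38 bases with CG11257 on the opposite strand, which had at most 3.69 CPM. Levels fell between days 4 and 5 in both genotypes, by 0.65 ± 0.15 with tumours and by 1.42 ± 0.15 in controls.

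The other 3 subunit genes of complex II had smaller log2 changes. At day 4 SdhB, SdhC and SdhD were all called higher with tumours. At day 5 the iron-sulphur subunit SdhB was at 0.44 ± 0.13, and the membrane anchors SdhD at 0.37 ± 0.15 and SdhC at 0.23 ± 0.14, which was not called. Per kilobase, SdhA over SdhB was 0.437, 0.348, 0.325 and 0.340 in day 4 tumour libraries, against 0.246, 0.214, 0.257 and 0.257 in day 4 controls. It was 0.559, 0.478, 0.392 and 0.414 in day 5 tumour libraries, against 0.158, 0.201, 0.180 and 0.163 in day 5 controls. The groups did not overlap on either day. At days 8 and 11 the ratio was 0.381 ± 0.0377 and 0.508 ± 0.0677 (SD).

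The last enzyme, mitochondrial malate dehydrogenase, restores oxaloacetate and is encoded by Mdh2 (FBgn0262559; 3R, 18226396 to 18228718). At day 4 Mdh2 was at 1276, 1169, 1486 and 1570 CPM in tumour libraries, against 1254, 1312, 1245 and 1098 in controls. These overlapped and the change of 0.16 ± 0.12 was not called. At day 5 it was at 1029, 956, 786 and 755 CPM in tumour libraries, against 489.7, 501, 463 and 459 in controls, with no overlap. The change was 0.88 ± 0.12 (edgeR, adjusted p = 1.91e-06) and the interaction 0.72 ± 0.17 (edgeR, adjusted p = 0.00253). Between days 4 and 5 Mdh2 fell by 0.64 ± 0.12 with tumours and fell by 1.36 ± 0.12 in controls. Later tumour libraries held 559, 507, 388 and 414 CPM at day 8 and 382, 379, 375 and 419 at day 11. The cytosolic enzyme Mdh1 was called higher with tumours at day 4 and also at day 5 (0.44 ± 0.09).

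In normal development, day 5 controls against day 4 controls, Mdh2, SdhA and Ogdh were called lower and Scsalpha1 higher, 3 and 1 of 9, where 29.2% of all genes were called lower and 25.8% higher, with a median of -0.21 against -0.09 over all genes. Scsalpha1, at 0.27 ± 0.10 (edgeR, adjusted p = 0.0315), was not called without control replicate 2 of day 4 (0.19, adjusted p = 0.13) or replicate 1 (0.24, adjusted p = 0.0851) or 4 (0.26, adjusted p = 0.0694) of day 5, nor with only the groups compared in the model (0.31, adjusted p = 0.059) or without the 2 controls richest in salivary gland RNA (0.20, adjusted p = 0.119). Idh3a and kdn were not called, but Idh3a was without control replicate 4 of day 4 (-0.28, adjusted p = 0.0303) and kdn was without control replicate 3 of day 5 (-1.44, adjusted p = 0.00938) or replicate 3 (-1.16, adjusted p = 0.0388) or 4 (-1.23, adjusted p = 0.0218) of day 4, and by DESeq2 (-0.93, adjusted p = 0.0407). Between day 5 and day 4 with tumours 6 enzymes were called lower (kdn, mAcon1, Idh3a, Idh3b, SdhA and Mdh2) and Ogdh higher, with 24.5% of all genes called lower and 19.6% higher, and a median of -0.49 against 0.02 over all genes. Idh3b, at -0.31 ± 0.12 (edgeR, adjusted p = 0.0413), was the weakest of these and was lost without tumour replicate 2 or 3 of day 4 or replicate 2, 3 or 4 of day 5 (-0.29 to -0.19, adjusted p 0.0828 to 0.25). It was also lost with RLE scaling (-0.23, adjusted p = 0.119), scaling without the 20 most abundant genes (-0.24, adjusted p = 0.0944), a replicate block (-0.31, adjusted p = 0.0581), only the groups compared in the model (-0.26, adjusted p = 0.181) and DESeq2 (-0.23, adjusted p = 0.118). ScsbetaA, at 0.16, was called higher by DESeq2 alone (0.24, adjusted p = 0.0416).

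Later in the tumour course the set split further. At day 8 against day 5, Ogdh (-0.51 ± 0.14), Idh3a (-0.42 ± 0.10), SdhA (-0.75 ± 0.15) and Mdh2 (-0.92 ± 0.12) were called lower and ScsbetaA higher, 4 and 1 of 9, where 14% of all genes were called lower and 12% higher. The median of the enzymes there was -0.35, against 0.01 over all genes. Scsalpha1, at 0.28 ± 0.10, was called higher without tumour replicate 2 of day 5 (0.33, adjusted p = 0.0443), with only the groups compared in the model (0.28, adjusted p = 0.0434) and by DESeq2 (0.27, adjusted p = 0.0492). At day 11 against day 8 ScsbetaA was called higher and no enzyme lower, with 1.72% of all genes called higher and 1.62% lower. DESeq2 also called 0 lower, and at an unadjusted p under 0.05 edgeR had 2 higher and 1 lower. The values of kdn were 29.3, 32.1, 24.5 and 26.9 CPM at day 8 and 44.6, 49.1, 44.0 and 39.0 at day 11, a change of 0.65 ± 0.43 (edgeR, adjusted p = 0.541). Every library of day 11 lay above every one of day 8, and with only these groups in the model kdn was called (0.64, edgeR adjusted p = 0.00458).

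Day 8 tumour larvae were also set against day 5 controls. ScsbetaA (1.60 ± 0.11), Ogdh (1.95 ± 0.15) and SdhA (1.10 ± 0.15) were called higher and mAcon1 (-0.61 ± 0.13), Idh3a (-0.37 ± 0.10) and Scsalpha1 (-0.31 ± 0.10) lower, 3 and 3 of 9, where 25.2% of all genes were called higher and 29.2% lower, with a median of -0.03 against 0.03 over all genes. The Scsalpha1 call was lost without control replicate 1 of day 5 (-0.28, adjusted p = 0.0511). Idh3b, at 0.24, was called with only the groups compared in the model (0.27, adjusted p = 0.0117). At day 11 against day 5 controls ScsbetaA (1.98 ± 0.11), Ogdh (1.69 ± 0.14), SdhA (1.44 ± 0.15) and Idh3b (0.35 ± 0.12) were called higher and mAcon1 (-0.55 ± 0.13), Scsalpha1 (-0.40 ± 0.10), Mdh2 (-0.30 ± 0.12) and Idh3a (-0.29 ± 0.10) lower, 4 and 4 of 9, where 27.4% of all genes were called higher and 30.1% lower, with a median of 0.12 against 0.02. Idh3b was lost without tumour replicate 4 of day 11 (0.23, adjusted p = 0.102). Mdh2 was lost without tumour replicate 1, 2 or 3 of day 11 or control replicate 1 or 2 of day 5 (-0.29 to -0.28, adjusted p 0.0689 to 0.0769), and with no low-count filter (-0.29, adjusted p = 0.0691). Idh3a was lost without tumour replicate 1 or 2 of day 11 or control replicate 3 of day 5 (-0.27 to -0.26, adjusted p 0.0502 to 0.0533), and with only the groups compared in the model (-0.20, adjusted p = 0.0508). In the same comparisons all 6 haemocyte markers were called higher at days 8 and 11 (266 ± 60.8 and 682 ± 109 CPM summed, against 41.5 ± 10.7 in day 5 controls, SD). Of 8 fat body markers 6 and 7 were called lower (123200 ± 32430 and 64190 ± 8825 CPM, against 478000 ± 16830), and of 8 salivary gland markers 5 and 7 (0.152 to 69.2 and 0.0363 to 1.97 CPM, against 29.3 to 1486). Their part in the enzyme values was not tested. These comparisons share the day 5 controls with each other, with the day 5 tumour effect and with the control development comparison.

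Per kilobase of exon the shares of the 9 enzymes differed between groups. Mdh2 was the largest part at tumour days 4 and 5 (53.0% and 44.7% of the summed level of the 9 genes), Scsalpha1 at day 8 (33.0%) and ScsbetaA at day 11 (33.1%). In controls Mdh2 led at day 4 (53.5%) and Scsalpha1 at day 5 (46.5%). The smallest share was that of Idh3b at tumour day 4 (1.21%), of kdn at tumour days 5, 8 and 11 (0.853%, 0.716% and 1.11%), of Idh3b at control day 4 (0.969%) and of SdhA at control day 5 (0.671%). The summed CPM of the 9 genes was 3532 ± 264, 2914 ± 245, 2813 ± 70.7 and 2898 ± 121 (SD) at tumour days 4, 5, 8 and 11, against 2880 ± 151 at control day 4 and 2127 ± 28.2 at control day 5.

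Among groups in the order of their mean, neighbours were separated with no overlap of libraries in 3 places for Ogdh (tumour day 5 above day 8, tumour day 11 above control day 4, control day 4 above control day 5). For ScsbetaA there were 2 such places (tumour day 11 above day 8, day 8 above day 5), as for SdhA (tumour day 4 above day 5, tumour day 8 above control day 5) and Mdh2 (control day 4 above tumour day 5, tumour day 5 above control day 5). Idh3a (control day 5 above tumour day 11) and Scsalpha1 (control day 5 above control day 4) had 1 each. For kdn, mAcon1 and Idh3b no neighbours were so separated. How often such gaps occur over all genes was not counted, so these places do not set the enzymes apart from other genes. Across the 24 libraries Idh3a and Mdh2 had the highest Spearman correlation between enzymes, 0.85, and Scsalpha1 and SdhA the lowest, -0.73. The libraries share their group, age and make-up of cells, so these are descriptions.

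The pyruvate entry list covers the carrier, pyruvate dehydrogenase, its kinase and phosphatase, pyruvate carboxylase and lactate dehydrogenase. At day 4 with tumours 6 of its 9 genes were called higher and none lower (median 0.57, against 0.01 over all genes), where 14.6% of all genes were called higher and 10.5% lower. None of the 9 was lower at an unadjusted p under 0.05 either (edgeR). At day 5 6 were higher and 1 lower (median 1.31, against 0.03 over all genes), beside 26.7% of all genes higher and 28.2% lower. The largest day 5 changes were those of CG9399 (2.80 ± 0.47) and Mpc1 (2.53 ± 0.26), subunits of the mitochondrial pyruvate carrier, Pdk (1.64 ± 0.20), the kinase that inactivates pyruvate dehydrogenase, and PCB (1.59 ± 0.10), pyruvate carboxylase, which makes oxaloacetate. The interaction was called for Mpc1, Pdk and PCB (1.06 ± 0.35, 1.08 ± 0.28 and 0.92 ± 0.14). Of the 9 genes 8 were called lower at day 8 against day 5, beside 14% of all genes. The 8 include Ldh, which was near the floor, at 0.0671 to 7.21 CPM at tumour day 5 and 0 to 0.342 CPM at day 8. Of the 10 other subunits and isoforms of the cycle, 8 were called higher at day 4 (median 0.46, against 0.01 over all genes), beside 14.6% of all genes. At day 5 7 were called higher (median 0.42, against 0.03), beside 26.7% of all genes. On either day edgeR had 0 lower, also at an unadjusted p under 0.05. Day 8 against day 5 had 6 of them lower, beside 14% of all genes, and none higher, and 0 were higher at an unadjusted p under 0.05 (edgeR). Of 12 paralogs of the enzymes, 11 were under the low-count filter (Fum2 passed it), and the summed level of all 12 was between 0.133 and 1.92 CPM in 23 libraries, while tumour replicate 1 of day 5 held 70.1 CPM together with 41.0 CPM of testis markers.

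**Figure D5:**
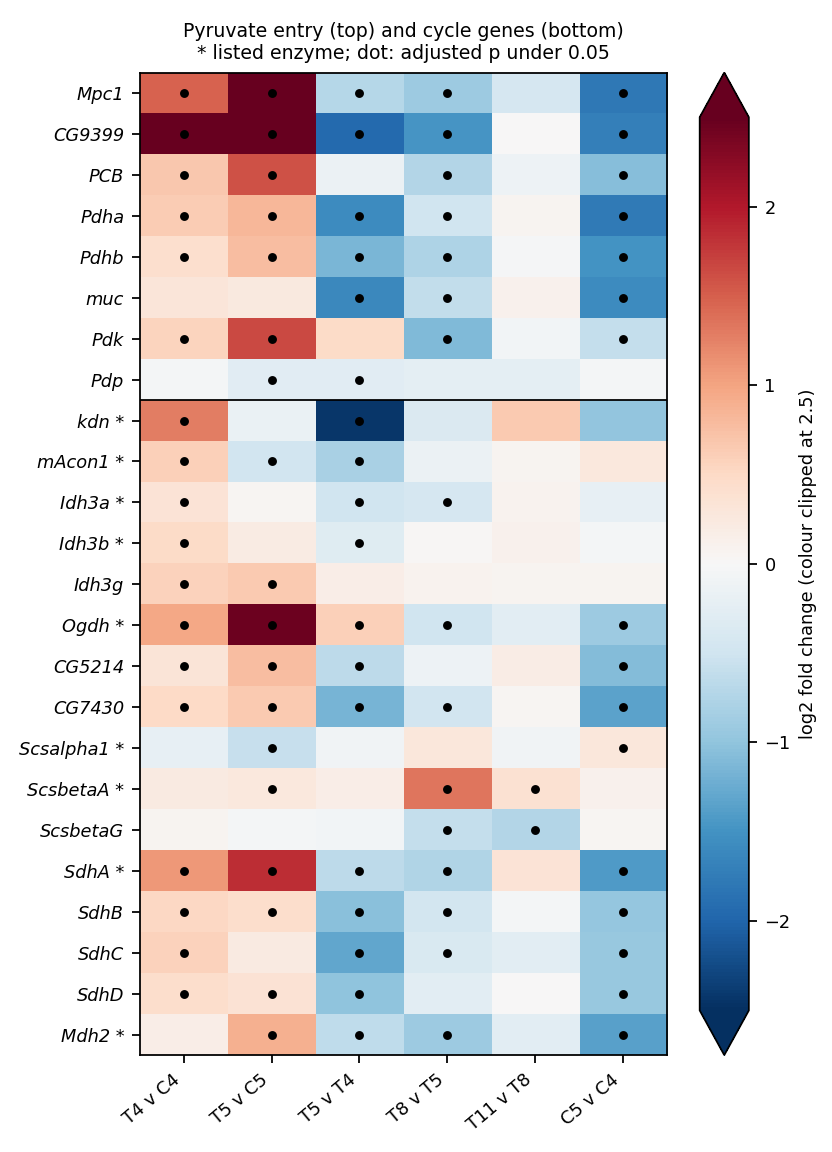
Log2 fold changes (colour, red higher and blue lower, clipped at 2.5) of 8 of the 9 pyruvate entry genes (upper block, without Ldh) and the cycle genes (lower block, stars on the listed enzymes) in 6 comparisons, where T is tumour, C control and the number the day. Dots mark an adjusted p under 0.05 over all genes; the ScsbetaA and ScsbetaG rows take opposite colours in the comparisons of days 8 and 11.

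Genes whose levels ran most like the mean profile of the 9 enzymes over the 24 libraries were sought among 4047 others, by Spearman correlation with no test. They were Coq8 (0.92), needed for ubiquinone synthesis, FBgn0040813 (0.92; no symbol in the annotation used), ATPsynbeta (0.91), the beta subunit of ATP synthase, UQCR-C1 (0.91) and UQCR-C2 (0.90), core proteins of respiratory complex III. UQCR-C1 was at 178 CPM in day 5 tumour larvae against 95.4 CPM in day 5 controls. Each enzyme is itself part of the mean profile, which raises its correlation with it. Among them SdhA ran closest to the mean profile (0.89), while mAcon1 (0.44) and Ogdh (0.40) followed it less. Scsalpha1 (-0.52) and ScsbetaA (-0.00) did not follow it.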

How the data were processed

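RNA from larval fat body was sequenced in 24 libraries. For each library the authors deposited raw read counts per gene, all whole numbers and not normalized. The submitters' processing notes name STAR 2.5.4a and the genome build BDGP6. Which program counted the reads, with which annotation and strand setting, is not given in the sources used here, so reads of overlapping genes and of near-identical copies cannot be told apart. Gene symbols and positions come from the BDGP6.54 annotation by identifier: 17560 of 17698 matched. The current identifier of Fum1 has no row, and the gene is not analysed here. No table of sequences was given, so none is printed.

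From these counts, filterByExpr kept 8707 genes, libraries were scaled by TMM, and 1 edgeR 4.0.16 quasi-likelihood model (robust) with 6 group means was fitted to all 24 libraries in R 4.3.3. Benjamini-Hochberg adjustment ran over all genes tested. CPM are TMM-scaled. The step was also run on simulated counts with known changes in a small part of the genes. That run cannot show how the scaling fares where many genes change, as in several comparisons here. Pairs of libraries within a group had a chi-square of 8.99 to 221 per degree of freedom, so none was a copy of another. Same-numbered libraries had correlations of their deviations from -0.291 to 0.443, and numbers were taken not to pair them. Counts of calls and log2 changes cover the spread between libraries only.

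The 10 enzymes and all lists were chosen with earlier results of these data known. All enzymes were named, and of each related list at most 4 called genes with the largest change in the comparison described, besides others named as chosen later and subunits that partner an enzyme. Genes of like pattern were the 5 with the highest Spearman correlation among those reaching 20 CPM in some group. Alternatives were DESeq2 1.42.0, RLE scaling, scaling that leaves out the 20 most abundant genes, all genes with a count kept, a model of the compared groups alone, a replicate block, and each library left out in turn. After seeing the data 2 were added: without the 2 controls richest in salivary gland RNA, and without 2 day 5 tumour libraries with testis or muscle RNA.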

Additional observations from a re-analysis of the deposited data

Results flagged for a closer look

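In 6 of 54 sets of 4 libraries, 1 for each enzyme and group, a library stood apart from the other 3 by more than the 95% critical value of Dixon's ratio of the gap to the range. Chance flags about 1 set in 20. Idh3a was at 131.1 CPM in replicate 2 of tumour day 4, above the rest. Idh3b was at 48.45 CPM in replicate 1 of tumour day 5, above the rest, the library that also held testis RNA. Mdh2 was at 419.4 CPM in replicate 4 of tumour day 11, above the rest. Scsalpha1 was at 552.9 CPM in replicate 2 of control day 4, below the rest, the library with the most salivary gland RNA of its group. ScsbetaA was at 990.9 CPM in replicate 2 of tumour day 11 and at 234.7 CPM in replicate 1 of control day 4, each below the rest.

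The tumour effect differed between days 5 and 4 by the interaction test for 4 enzymes. The difference, day 5 minus day 4 on the log2 scale, was 1.50 for Ogdh, 0.77 for SdhA, 0.72 for Mdh2 and -1.06 for mAcon1.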

How the results depend on the processing

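Of 1296 values of single enzymes under the alternatives, 1197 kept their direction and their side of the threshold, 53 lost a call, 28 gained one and 18 changed sign, all 18 for changes that were not called. Without the 20 most abundant genes in scaling or with RLE scaling, the median of all genes moved by less than 0.1 on the log2 scale. All genes called at day 4 were 1065 with only the groups compared in the model, against 2191. All genes called at day 11 against day 8 were 187 with no filter, 835 with only the groups compared and 559 with DESeq2, against 291, and 137 to 277 with 1 library left out (137 and 177 without replicate 1 or 2 of day 8, and 170, 141 and 167 without replicate 2, 3 or 4 of day 11). The enzymes called there were 0 with no filter, 2 with only the groups compared and 0 to 1 with 1 library left out, against 1.

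These changes of sign were seen. Idh3b between control days 5 and 4 was 0.0099 with RLE scaling, 0.0103 with DESeq2 and -0.0848 to 0.0025 with 1 library left out, against -0.04. Idh3b at day 8 against day 5 was -0.0268 without the 20 most abundant genes and -0.0417 to 0.159 with 1 library left out, and at day 11 against day 8 -0.0010 to 0.184. For kdn at day 5 the tumour effect was 0.28 without the 2 control libraries and -0.47 to 0.283 with 1 library left out, and at day 11 against control day 5 -0.0417 to 0.577. Mdh2 at day 8 against control day 5 ran from -0.135 to 0.0424, and the interaction of ScsbetaA from -0.0321 to 0.138. The causes were not tested.

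The replicate block ended 1 call, Idh3b at day 5 against day 4 with tumours (-0.31, edgeR adjusted p = 0.0581), and changed no other call of an enzyme. Replicate numbers were taken not to pair these samples, as the library with the same number was the best match for at most 2 of 4. That check cannot exclude a link between some same-numbered libraries. At day 4 replicate 2 of both genotypes held the most kdn, mAcon1, Idh3a, Idh3b and SdhA of its group and the least Scsalpha1. This was not so for Ogdh, ScsbetaA and Mdh2, and a shared effect was not tested further. Raw counts of the enzymes ran from 321 to 38484 per library.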

Other observations

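Of 10 tested genes that draw on the cycle or refill it, 4 were called higher and 3 lower with tumours at day 4 (median 0.20, against 0.01 over all genes), where 14.6% of all genes were called higher and 10.5% lower. At day 5 4 were higher and 4 lower (median 0.33, against 0.03), beside 26.7% of all genes higher and 28.2% lower. At day 5 the malic enzyme gene Men, whose product turns malate into pyruvate and makes NADPH, was at 3.00 ± 0.17 and its relative Men-b at 1.90 ± 0.47. Levels of Men-b were low, 1.91 to 8.31 CPM in day 5 tumour libraries, against 0.535 to 1.85 in day 5 controls. In the cytosol, where iron regulatory proteins act as aconitases or as RNA-binding proteins, Irp-1A was at -2.98 ± 0.13 and Irp-1B at 1.81 ± 0.15. The levels of Irp-1A were 40.6, 46.6, 48.5 and 44.8 CPM in day 5 tumour libraries, against 409.9, 296, 334 and 388 in day 5 controls. Irp-1B was at 1089, 962, 714 and 846 CPM in day 5 tumour libraries, against 247, 307, 249 and 229 in controls. The 2 genes moved in opposite directions, with no overlap of their libraries. For Irp-1A the effect at day 5 differed from that at day 4 by -2.46 ± 0.18, a called interaction.

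ATPCL encodes ATP-citrate lyase, which splits exported citrate for fatty acid synthesis. It was called lower with tumours at day 4 (713.5 ± 342 CPM, against 1308 ± 230 in controls, SD) and day 5 (167.9 ± 13.2 CPM, against 443 ± 45.3). In controls it was also called lower at day 5 than at day 4. With tumours ATPCL fell further at day 8 against day 5 (-1.38 ± 0.22), and it stood at -2.94 ± 0.23 at day 11 against day 5 controls. Of 10 genes of mitochondrial content tested, 3 were called higher and 1 lower at day 4, beside 14.6% and 10.5% of all genes. At day 5 1 was higher (sesB, the ADP/ATP carrier) and 2 lower, shares below the 26.7% and 28.2% of all genes. At day 8 against day 5 and at day 11 against day 8 edgeR called 0 of the 10, and 0 had an unadjusted p under 0.05. Of all genes 12% were called higher and 14% lower in the first of these comparisons, and only 1.72% and 1.62% in the second.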
